A study of Homo sapiens with 2 samples.

Results

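Transcripts of lysosomal enzymes and of the vacuolar proton pump (V-ATPase) were compared between HepG2 cells exposed to fluid shear stress (FSS, the drag that flowing liquid puts on cells) and HepG2 cells in static culture. HepG2 is an established human liver cancer line. FSS was applied for 8 h, the control was static culture, and both groups were at passage 10 to 15. Each group was 1 library made from a mix of 3 replicates, so there was no replicate check of any difference and no p-value is given. The genes were chosen by name. They were all genes whose symbol starts with ATP6V0 or ATP6V1, all cathepsins (CTS with 1 letter), and 23 further lysosomal genes, and 50 of the 11589 gene symbols in the table met this rule. Expression is in FPKM, which divides the fragments of a transcript by its length and by the mapped fragments of the library, summed here over the listed transcripts of a gene. The log2 ratio compares FPKM + 1 under FSS with that in static culture. Folds use the same scale, on which changes of low genes look smaller. Genes at least 1.5-fold apart on it are called higher or lower.

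Lysosomes are membrane-bound compartments in which acid hydrolases break down proteins, sugars, lipids and nucleic acids. Their acidity comes from the V-ATPase, whose V1 sector in the cytosol hydrolyzes ATP and whose V0 sector in the membrane carries protons inward. TFEB and TFE3, transcription factors of the MiT/TFE family, move to the nucleus when the kinase mTORC1 is inactive at the lysosome and bind promoters of lysosomal genes.

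The deposited FPKM summed to 325712 in the static library and 323352 in the FSS library, with unknown read depth. Over the 11221 genes that reached 0.5 FPKM in either library, the median log2 ratio was -0.25. Centered ratios, with the -0.23 median of genes at 5 FPKM or more subtracted, are given beside the deposited ones. The epithelial keratins KRT8 and KRT18 were at 302 and 265 FPKM in static culture, and at 202 and 275 FPKM in FSS cells, and the other 11 of 13 hepatocyte markers were not analysed here. Among 5 macrophage markers, a lysosome-rich cell type, CD68 and CD14 were measured, and they summed to 1.70 FPKM in the static library and 6.06 FPKM in the FSS library. CD68 itself encodes a lysosomal membrane protein. Among 3 fibroblast markers COL1A1 and DCN summed to 28.0 and 6.06 FPKM, with DCN listed at 0 in static cells, and CDH5, the measured 1 of 3 endothelial markers, was at 0.818 and 0.634 FPKM. The part of these markers in the results was not tested.

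The lysosomal and pump genes went both ways. Of 50 genes, 49 passed that filter, and ATP6V0A4, a pump subunit best known from kidney, was under it at 0.144 FPKM in the static library and 0.457 FPKM in the FSS library. In FSS, 10 of the 49 were higher (20.4%), against 10.5% of all tested genes. There were 9 lower genes (18.4%), against 29.5% of all tested genes. The median log2 ratio was -0.15, against -0.25 over all tested genes. After centering, 16 were higher (32.7%) and 6 lower (12.2%), against 17.8% and 17.9% of all tested genes. Together the 50 genes held 0.606% of the listed FPKM in static cells and 0.623% in FSS cells. The tested members were well expressed, with a median of 23.8 FPKM in static cells against 8.98 FPKM over all tested genes. In bulk RNA, fewer cells expressing a gene and less RNA per cell cannot be told apart.

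**Figure D1:**
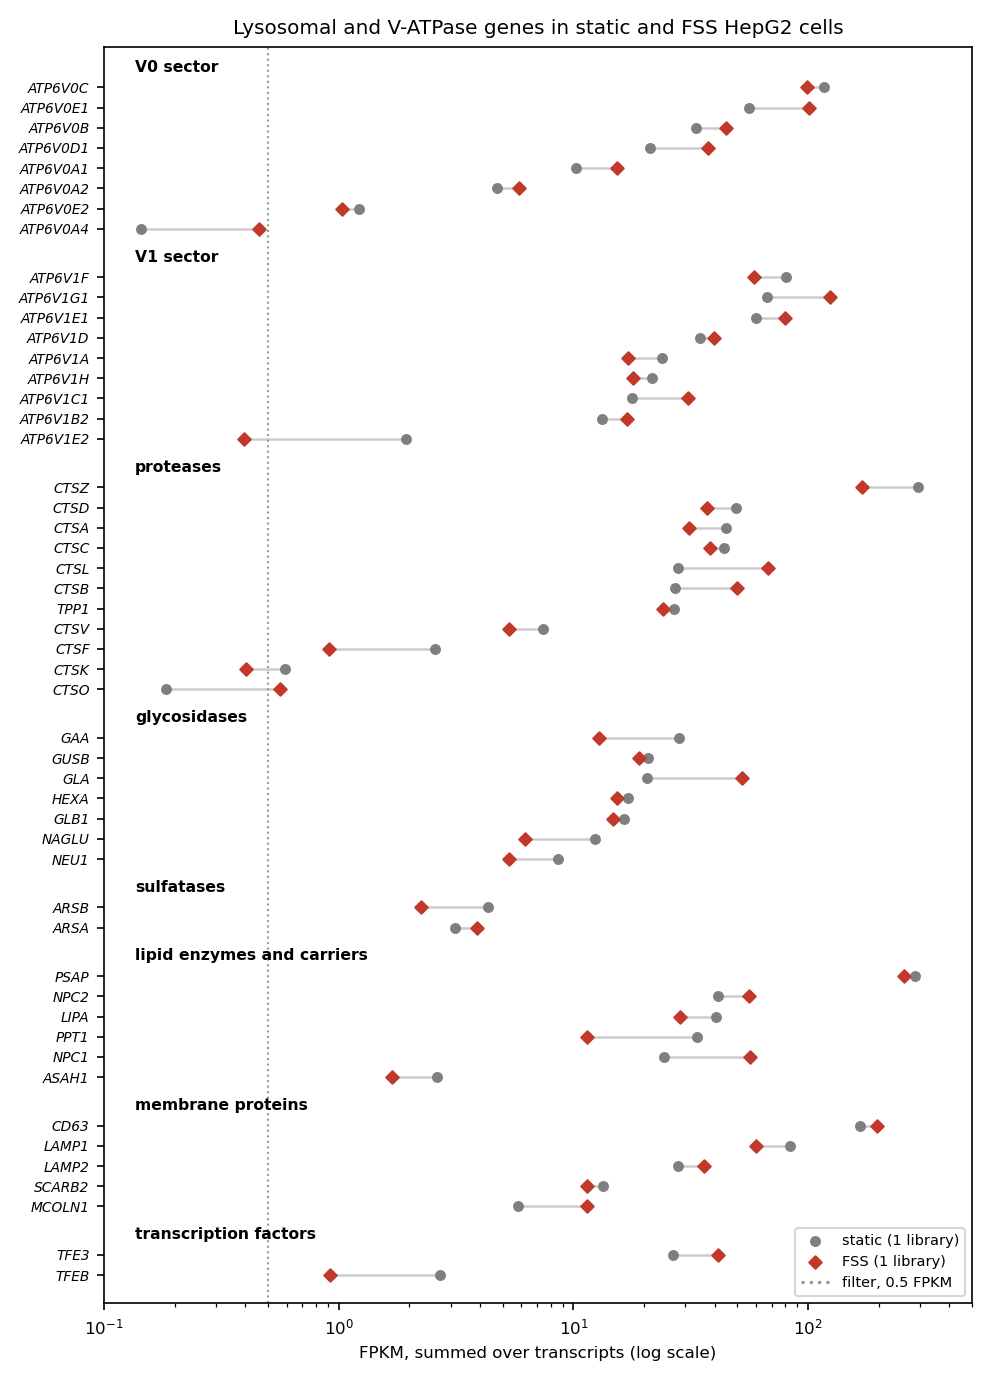
FPKM of each of the 50 genes in the static library (gray circles) and the FSS library (red diamonds), by role, on a log axis. The dotted line is the filter of 0.5 FPKM, and the widest gaps to the right of it include GLA, CTSL and NPC1, higher in FSS, and PPT1 and GAA, lower in FSS.

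Among proton pump genes, subunits of both sectors were higher in FSS. Of 16 tested subunit genes 4 were higher in FSS (against 10.5% of all tested genes) and 1 was lower (6.25%, against 29.5%), with a median log2 ratio of 0.29. The other 11 were within 1.5-fold. Centered ratios gave 7 higher (43.8%, against 17.8%) and 1 lower (6.25%, against 17.9%) and a median of 0.52. The summed FPKM of the pump genes was 564 in static cells and 691 in FSS cells. By sector, the median was 0.41 for 7 V0 genes and 0.19 for 9 V1 genes.

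In the membrane sector V0, ATP6V0E1, a small subunit of the sector, was at 55.9 FPKM in the static library and 101 FPKM in the FSS library, 1.80-fold higher. ATP6V0D1, the subunit that couples V0 to the central stalk, was at 21.2 and 37.6 FPKM, 1.74-fold higher. These were the 2 of 7 tested V0 genes past 1.5-fold as deposited (28.6% higher, against 10.5% of all tested genes). ATP6V0C, which encodes the most abundant subunit of the proton-carrying ring and was the highest V0 gene in static cells, was at 117 and 98.6 FPKM. Its ring partner ATP6V0B was at 33.4 and 44.7 FPKM. The large subunit a, which lines the path of the protons, had 3 forms past the filter. ATP6V0A1 was at 10.3 and 15.3 FPKM and ATP6V0A2 at 4.71 and 5.84 FPKM. TCIRG1, the form whose symbol lies outside the naming rule and which is not in the counts above, was the most abundant of them in static cells and was lower in FSS, at 18.3 and 9.15 FPKM (log2 ratio -0.93, centered -0.70). ATP6V0E2, the paralog of ATP6V0E1, was low, at 1.22 and 1.03 FPKM. After centering ATP6V0A1 and ATP6V0B also passed 1.5-fold, so that 4 V0 genes were higher (57.1%, against 17.8%) and 0 lower (against 17.9%). Both added genes had transcript forms that went opposite ways, given below.

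In the cytosolic sector V1, the 2 higher genes encode parts of the stalks that hold the catalytic head. They were 22.2% of the 9 tested V1 genes, against 10.5% of all tested genes. ATP6V1G1, a subunit of the peripheral stalks, was at 66.8 FPKM in the static library and 124 FPKM in the FSS library, 1.85-fold higher and the largest ratio of the pump. ATP6V1C1, which links the stalks to V0, was at 17.8 and 30.9 FPKM, 1.70-fold higher. The catalytic subunit ATP6V1A was at 23.8 and 17.1 FPKM (log2 ratio -0.45), whereas its partner in the head, ATP6V1B2, was at 13.3 and 16.9 FPKM (log2 ratio 0.32.) Thus subunits that work in one head lay on either side of 0, both within 1.5-fold. Of the central stalk, ATP6V1D was at 34.6 and 39.7 FPKM and ATP6V1F at 80.4 and 59.1 FPKM. ATP6V1E1, the partner of ATP6V1G1 in the peripheral stalks, was at 60.1 and 79.7 FPKM, and ATP6V1H, a regulatory subunit, at 21.7 and 17.9 FPKM. ATP6V1E2, a paralog of ATP6V1E1 described as testis-enriched, was the 1 lower pump gene, from 1.94 to 0.393 FPKM, and it fell under 1.5-fold with a pseudocount of 5 FPKM.

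Proteases were divided, with CTSL and CTSB higher in FSS and CTSZ and CTSF lower. Of 11 protease genes 2 were higher (18.2%, against 10.5% of all tested genes) and 2 lower (18.2%, against 29.5%), with a median log2 ratio of -0.20. After centering 3 were higher (27.3%, against 17.8%) and 1 lower (9.09%, against 17.9%), with a median of 0.03. The gene that centering added on the higher side was CTSO, which reached 0.5 FPKM only in the FSS library. It was at 0.183 FPKM in the static library and 0.561 FPKM in the FSS library. CTSO also counts among the 16 members higher after centering. CTSL, which encodes cathepsin L, a cysteine endopeptidase, was at 27.9 FPKM in the static library and 67.2 FPKM in the FSS library, 2.36-fold higher, and its 3 listed transcripts were all higher. CTSB, which encodes cathepsin B, another cysteine protease, was at 27.2 and 49.9 FPKM, 1.81-fold higher. In static culture these 2 genes were at nearly the same level.

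CTSZ, a cysteine carboxypeptidase, was the most abundant of all 50 genes in static cells, at 294 FPKM, and was at 169.6 FPKM in FSS cells. That is 1.73-fold lower, but its centered log2 ratio of -0.56 was within 1.5-fold. CTSF, a further cysteine cathepsin, was at 2.58 and 0.906 FPKM. CTSD, the main aspartic protease of lysosomes, was at 49.4 and 37.1 FPKM, and CTSA, a serine carboxypeptidase that also protects GLB1 and NEU1 in a complex, was at 44.5 and 31.2 FPKM. CTSC, which activates serine proteases of immune cells, was at 44.0 and 38.2 FPKM and TPP1, a tripeptidyl peptidase, at 26.8 and 24.2 FPKM. TPP1-215 held 94.6% of the TPP1 sum in static cells and 97.8% in FSS cells. By name, GENCODE release 29 lists that form as a processed transcript, not as protein coding. The coding form TPP1-201 was at 1.45 FPKM in the static library and 0.531 FPKM in the FSS library. CTSV, a close relative of CTSL whose reads could be shared with it, was at 7.42 and 5.30 FPKM. CTSK and CTSO were both under 0.6 FPKM in both libraries. The summed FPKM of the protease genes was 524 in static cells and 425 in FSS cells, and CTSZ was the largest part of both sums.

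Among glycosidases, which remove sugars from glycolipids and glycoproteins, GLA stood alone on the higher side. GLA, the alpha-galactosidase that is deficient in Fabry disease, was at 20.6 FPKM in the static library and 52.4 FPKM in the FSS library, 2.48-fold higher and the largest ratio of the 50 genes. GAA, the acid alpha-glucosidase that degrades glycogen in lysosomes, was at 28.3 and 12.8 FPKM, 2.12-fold lower. NAGLU, an enzyme of heparan sulfate breakdown, was at 12.4 and 6.19 FPKM, 1.86-fold lower. NEU1, the lysosomal sialidase, was at 8.56 and 5.34 FPKM, which was 1.51-fold lower, just past the threshold. The other 3, HEXA, GLB1 and GUSB, had log2 ratios between -0.15 and -0.11. In all, 1 of 7 glycosidases was higher (14.3%, against 10.5% of all tested genes) and 3 were lower (42.9%, against 29.5%). With centered ratios 1 was higher (14.3%, against 17.8%) and 2 were lower (28.6%, against 17.9%). The summed FPKM of the group was 124 and 126.

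The sulfatases were low in both libraries. ARSB, which removes sulfate from dermatan sulfate, was at 4.33 FPKM in the static library and 2.24 FPKM in the FSS library, 1.65-fold lower, and within 1.5-fold after centering. ARSA, which acts on sulfatide, was at 3.13 and 3.89 FPKM.

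Among genes of lipid handling, NPC1 and PPT1 stood at opposite ends. NPC1, the membrane protein that exports cholesterol from lysosomes, was at 24.4 FPKM in the static library and 56.5 FPKM in the FSS library, 2.26-fold higher. Its longest form NPC1-201 was at 16.2 and 26.6 FPKM, 1.61-fold higher, and the rest of the sum came from shorter forms such as NPC1-212, at 1.91 and 10.5 FPKM. NPC2, which hands cholesterol to NPC1, was at 41.3 and 55.8 FPKM. Its log2 ratio of 0.43 passed 1.5-fold after centering. LIPA, the acid lipase that frees that cholesterol from its esters, was at 40.5 and 28.4 FPKM (log2 ratio -0.50.) PPT1, a thioesterase that removes palmitate from proteins, was at 33.5 and 11.4 FPKM, 2.78-fold lower and the lowest ratio of the 50 genes. Its main form PPT1-205 was at 26.1 and 4.71 FPKM, while PPT1-204 was at 2.35 and 3.33 FPKM. PSAP, the precursor of the saposins that present lipids to enzymes, was at 286 and 257 FPKM, and ASAH1, the acid ceramidase, at 2.62 and 1.69 FPKM.

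Of 5 membrane proteins, 1 was higher in FSS, the calcium channel MCOLN1, against 10.5% of all tested genes. The other 4 were within 1.5-fold, so that 0 were lower, against 29.5%. After centering LAMP2 was also higher (log2 ratio 0.59). That made 2 higher and 0 lower, against 17.8% and 17.9% of all tested genes. MCOLN1, the lysosomal cation channel TRPML1, was at 5.79 FPKM in the static library and 11.4 FPKM in the FSS library, 1.83-fold higher. LAMP1 and LAMP2, the main glycoproteins of the lysosomal membrane, differed in direction, at 83.9 and 59.8 FPKM for LAMP1 and at 27.8 and 35.9 FPKM for LAMP2. The LAMP2 forms can be told apart by their transcripts. LAMP2-201, which encodes LAMP2A, the receptor of chaperone-mediated autophagy, was at 10.8 and 11.9 FPKM, and LAMP2-202, which encodes LAMP2B, was at 16.5 and 23.2 FPKM. CD63, a tetraspanin of late endosomes and exosomes, was at 166 and 196 FPKM, and SCARB2, the receptor that carries glucocerebrosidase to lysosomes, at 13.4 and 11.4 FPKM.

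The transcription factors of lysosomal genes went opposite ways. TFE3 was at 26.7 FPKM in the static library and 41.4 FPKM in the FSS library, 1.53-fold higher. TFEB was at 2.70 and 0.921 FPKM, 1.92-fold lower, so that TFE3 was the more abundant in both libraries. With a pseudocount of 5 FPKM both were within 1.5-fold. MITF, a further member of the family, was at 18.4 and 8.01 FPKM, 2.15-fold lower. These are transcript levels and say nothing of where the proteins were.

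**Figure D2:**
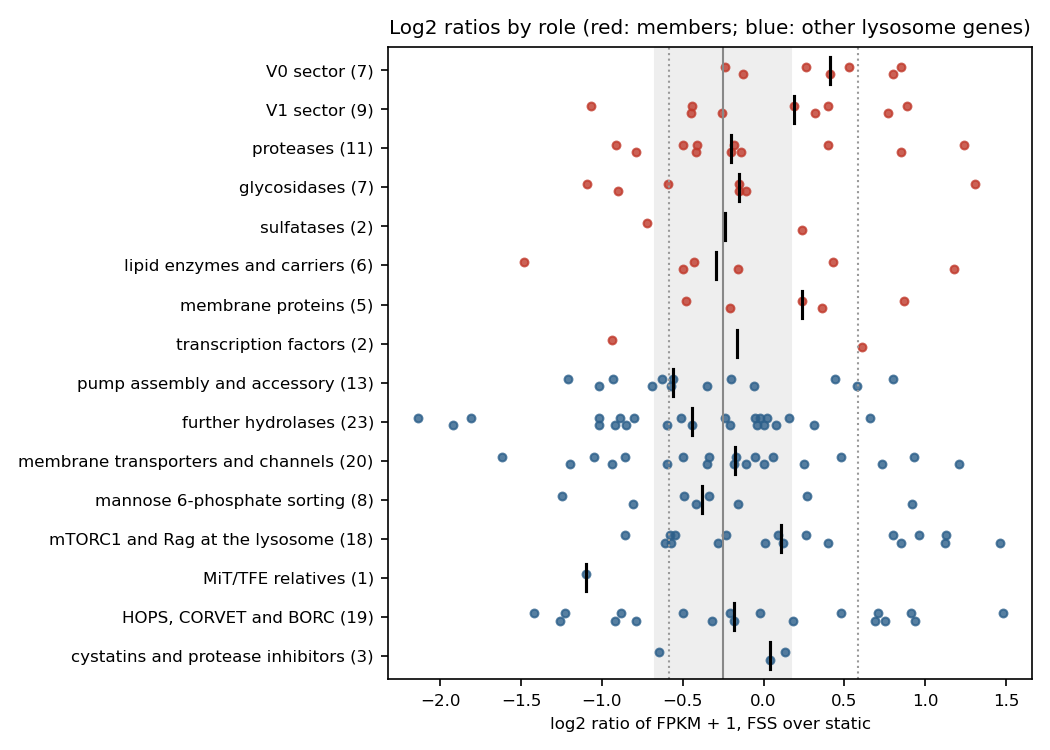
Log2 ratio of FPKM + 1, FSS over static, of each tested gene by role, with the number of genes in brackets, the chosen genes in red and further lysosome genes in blue. Black bars are group medians, the gray band and line are the quartiles and the median (-0.25) of all tested genes, and dotted lines are 1.5-fold. The medians of the V0 (0.41) and V1 (0.19) genes lie to the right of the line, and those of the further hydrolases (-0.44) and pump assembly genes (-0.56) to its left.

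To relate these genes to the factors above, promoters were searched for the letters that TFEB and TFE3 are known to bind. RefSeq promoter windows (build GRCh38.p14, from 250 bases before to 50 bases after a transcription start) were matched by symbol for 35 of the 50 genes. The hexamer CACGTG, searched on both strands, was in the windows of 13 of the 35 genes (37.1%), against 8.77% of 27305 genes and 13.3% of the 8786 genes that were also tested here. Over all 35116 windows its share was 7.26%. The longer TCACGTG, which contains it, was in 12 of 35 (34.3%), against 3.71% of windows and 7.59% of tested genes. The 9-letter TCACGTGAC, which contains both, was in 6 of 35 (17.1%), against 0.840% of windows and 2.15% of tested genes. The 6 genes were ATP6V1G1, ATP6V0D1 and MCOLN1, all higher in FSS, GAA, lower in FSS, and LAMP1 and CTSA, within 1.5-fold. The factors were already known to bind promoters of lysosomal genes. The shares above do not use the FSS ratios and are no test of them.

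These sites are shown because the same letters stood before genes that went different ways. Each run is the gene's strand, 5′ to 3′, with CACGTG in capitals. The 9-letter form can lie on either strand, and where it lies on the opposite one, as in the ATP6V0D1 run and the first MCOLN1 run, it reads GTCACGTGA in the printed run. The first base of the capitals is counted from the start site (-1 is the base before it). The ATP6V1G1 run is chr9:114587691-114587736 (+ strand, -58) and the ATP6V0D1 run chr16:67481191-67481236 (- strand, -59). The MCOLN1 runs are chr19:7522563-7522608 (+ strand, -41) and chr19:7522590-7522635 (+ strand, -14). The GAA runs are chr17:80101485-80101530 (+ strand, -76) and chr17:80101530-80101575 (+ strand, -31). The LAMP1 runs, those of its sites in the 9-letter form, are chr13:113297191-113297236 (+ strand, -28) and chr13:113297218-113297263 (+ strand, -1), and the CTSA run is chr20:45891290-45891335 (+ strand, -25). All coordinates are of GRCh38.p14, while the reads were aligned to hg19.
ATP6V1G1: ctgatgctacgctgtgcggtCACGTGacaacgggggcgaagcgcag
ATP6V0D1: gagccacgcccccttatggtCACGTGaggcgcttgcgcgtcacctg
MCOLN1: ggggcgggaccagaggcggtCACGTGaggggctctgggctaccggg
MCOLN1: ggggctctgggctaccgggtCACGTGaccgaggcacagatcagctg
GAA: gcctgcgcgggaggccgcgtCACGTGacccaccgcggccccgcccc
GAA: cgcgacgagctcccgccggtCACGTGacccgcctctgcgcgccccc
LAMP1: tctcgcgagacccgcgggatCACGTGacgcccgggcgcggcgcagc
LAMP1: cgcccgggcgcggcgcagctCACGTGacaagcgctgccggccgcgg
CTSA: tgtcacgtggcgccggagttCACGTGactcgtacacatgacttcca

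MCOLN1, 1.83-fold higher, and GAA, 2.12-fold lower, each had 2 such sites within the window. LAMP1 had 6 sites of the 7-letter form, 2 of them in the 9-letter form, and was at 83.9 and 59.8 FPKM. Of the genes with the largest ratios, GLA, CTSL and NPC1 had a window without CACGTG, as had PPT1. Among members with a window, the 9-letter form stood in 3 of 7 higher genes, 2 of 20 within 1.5-fold and 1 of 7 lower genes. For the shorter forms, TCACGTG stood in 3 higher, 5 within and 4 lower genes and CACGTG in 3, 6 and 4. Whether the letters go with the calls was not tested. A match is a description of the letters, not a binding site.

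Several members differed in the make-up of their transcripts. Of 18 members with at least 2 transcripts at 5 FPKM or more in either library, 7 had forms past 1.5-fold in both directions (38.9%), against 26.1% of 2088 such genes in the table. The 7 were ATP6V0A1, ATP6V0B, ATP6V1E1, CTSB, CTSD, GLB1 and SCARB2. The deposited values are estimates in which overlapping transcripts share reads, so a switch between forms is less certain than a sum.

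ATP6V1E1-201 was at 57.4 FPKM in the static library and 23.9 FPKM in the FSS library, while ATP6V1E1-202 was listed at 0 in the static library and at 50.2 FPKM in the FSS library. The first held 95.4% of the gene's FPKM in static cells and 30.0% in FSS cells. For ATP6V0A1, ATP6V0A1-201 went from 6.85 to 2.09 FPKM and ATP6V0A1-204 from 0.392 to 10.4 FPKM. SCARB2-215 was at 11.2 FPKM in the static library and listed at 0 in the FSS library, and SCARB2-223 was at 2.06 and 9.54 FPKM, with a sum that stayed within 1.5-fold.

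In GLB1, the beta-galactosidase of lysosomes, GLB1-201 was at 10.7 and 2.82 FPKM and GLB1-203 at 4.64 and 12.0 FPKM, behind a gene log2 ratio of -0.15. CTSD-201 was at 19.1 and 3.48 FPKM and CTSD-207 at 10.1 FPKM in the static library and listed at 0 in the FSS library, while CTSD-213 was at 11.2 and 20.9 FPKM. CTSB-228 carried the higher level of its gene, at 18.2 and 45.0 FPKM, as CTSB-202 was at 7.72 and 3.07 FPKM. ATP6V0B-205 was at 15.2 and 27.6 FPKM and ATP6V0B-213 at 8.18 and 3.23 FPKM. By name, each of these forms is protein coding in GENCODE release 29. NPC2 was near this pattern, since NPC2-201 was listed at 0 in the static library and at 25.3 FPKM in the FSS library, and NPC2-207 was at 39.4 and 28.4 FPKM.

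**Figure D3:**
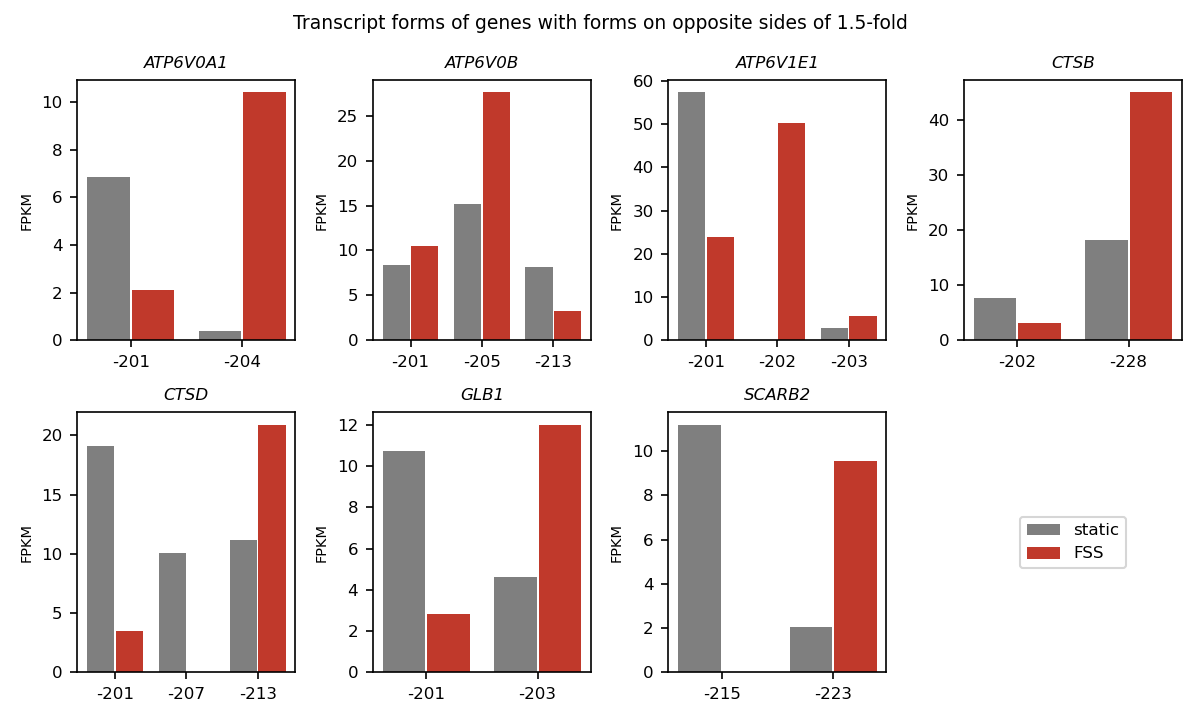
FPKM of each transcript with at least 5 FPKM in either library, in static (gray) and FSS (red) cells, for the 7 genes with forms on opposite sides of 1.5-fold; each bar is 1 library. ATP6V1E1-202 and SCARB2-215 show the change from or to a listed 0, at 50.2 FPKM in FSS cells and 11.2 FPKM in static cells.

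Further lysosome genes were taken from lists of the pathway. Over 105 tested genes in these lists, 18 were higher (17.1%, against 10.5% of all tested genes) and 33 lower (31.4%, against 29.5%), with a median log2 ratio of -0.21 against -0.25. After centering 23 were higher (21.9%, against 17.8%) and 24 lower (22.9%, against 17.9%). The share of lower genes as deposited was thus near that over the table. The list of further hydrolases also holds some genes that are not hydrolases, such as SUMF1. Of its 23 tested genes, 1 was higher (4.35%, against 10.5%) and 10 were lower (43.5%, against 29.5%), with a median of -0.44. After centering 1 was higher (4.35%, against 17.8%) and 8 lower (34.8%, against 17.9%). SGSH, the sulfamidase of heparan sulfate breakdown, was at 4.58 FPKM in the static library and 0.262 FPKM in the FSS library. MANBA, the beta-mannosidase, was at 6.95 and 1.10 FPKM, and SCPEP1, a serine carboxypeptidase by sequence, at 6.76 and 2.84 FPKM. SUMF1, which activates the sulfatases in the endoplasmic reticulum, was at 20.8 and 9.75 FPKM, and IDS, a sulfatase of heparan and dermatan sulfate, was the 1 higher gene, at 2.38 and 4.34 FPKM.

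Accessory and assembly genes of the pump, a list that also holds TCIRG1, went both ways. Of 13, 1 was higher (7.69%, against 10.5%) and 5 lower (38.5%, against 29.5%), with a median of -0.56. After centering 3 were higher, NCOA7, ATP6AP2 and VMA21, and 3 lower (23.1% each way, against 17.8% and 17.9%), with a median of -0.32. Whether this list differs from the subunits was not tested. ATP6AP1, an accessory subunit of V0, was at 35.1 FPKM in the static library and 14.6 FPKM in the FSS library. CCDC115, an assembly factor, was at 8.56 and 3.72 FPKM. NCOA7, which binds the pump, was higher, at 22.1 and 39.2 FPKM, and ATP6AP2, an accessory subunit, was at 8.34 and 13.0 FPKM with a log2 ratio of 0.58.

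Genes that place mTORC1 on the lysosome included higher ones around the FLCN complex. In this list of 18 there were 6 higher genes (33.3%, against 10.5%) and 2 lower (11.1%, against 29.5%), with a median of 0.10, and 7 and 1 after centering (38.9% and 5.56%, against 17.8% and 17.9%). FLCN, which with FNIP1 or FNIP2 acts on the Rag GTPases RRAGC and RRAGD, was at 4.76 and 14.8 FPKM, 2.75-fold higher. FNIP1 was at 5.48 and 13.2 FPKM, FNIP2 at 1.44 and 3.41 FPKM, and RRAGC at 13.6 and 30.9 FPKM. LAMTOR3, part of the Ragulator complex that anchors the Rag GTPases, was at 2.20 and 5.22 FPKM. LAMTOR2, a more abundant part of that complex, was lower, at 67.2 and 43.7 FPKM, but within 1.5-fold after centering. The other Ragulator genes of the list, LAMTOR1, LAMTOR4 and LAMTOR5, were within 1.5-fold. RRAGA, a Rag GTPase that pairs with RRAGC, was at 37.7 and 20.3 FPKM, while the kinase MTOR itself was at 19.5 and 13.0 FPKM.

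Of 20 membrane transporters and channels 3 were higher (15.0%, against 10.5%) and 6 lower (30.0%, against 29.5%), with a median of -0.18, so that the lower share was near that of all tested genes. After centering 4 were higher and 5 lower, against 17.8% and 17.9% of all tested genes. TMEM55B, a lipid phosphatase family protein of the lysosomal membrane, was at 6.25 FPKM in the static library and 15.8 FPKM in the FSS library. The endolysosomal channels TPCN1 and TPCN2 went apart, at 16.3 and 6.50 FPKM and at 1.39 and 3.53 FPKM, and TMEM175, a channel for potassium and protons, was at 3.58 and 0.492 FPKM. TMEM63A, a further channel protein, was at 12.3 and 5.45 FPKM. Among 8 tested genes of sorting by mannose 6-phosphate, the tag that sends hydrolases to lysosomes, 1 was higher and 2 were lower. The shares of all tested genes were 10.5% and 29.5%. The list had a median log2 ratio of -0.38. After centering 1 was higher and 1 lower, against 17.8% and 17.9% of all tested genes. M6PR, a receptor of the tag, was the 1 higher gene, at 20.5 and 39.6 FPKM. SORT1, a receptor that works without the tag, was at 11.4 and 4.22 FPKM. GGA1, an adaptor for these receptors, was the other lower gene, at 14.9 and 8.06 FPKM, and GNPTAB, which makes the tag, was at 10.9 and 7.47 FPKM.

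GC content was examined because ratios drifted with it across the table. The median log2 ratio was -0.14 over the 3719 tested genes with the lowest GC content and -0.39 over the 3720 with the highest. Members called higher had a median GC content of 51.4% (39.7% to 62.0%), and those called lower one of 57.7% (44.6% to 64.4%). The median of each of 20 GC bins was subtracted and the median of all genes added back, so that ratios stayed on the uncentered scale. After this, 11 of 49 members were higher and 9 lower, against 1193 higher and 3199 lower of 11221 tested genes. NEU1 was then within 1.5-fold, and ATP6V0A1 (log2 ratio 0.59) and LIPA (-0.60) were past it. The 5 members with the widest ratios kept their calls, with GLA at 1.35, CTSL at 1.27, NPC1 at 1.14, GAA at -0.85 and PPT1 at -1.52.

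**Figure D4:**
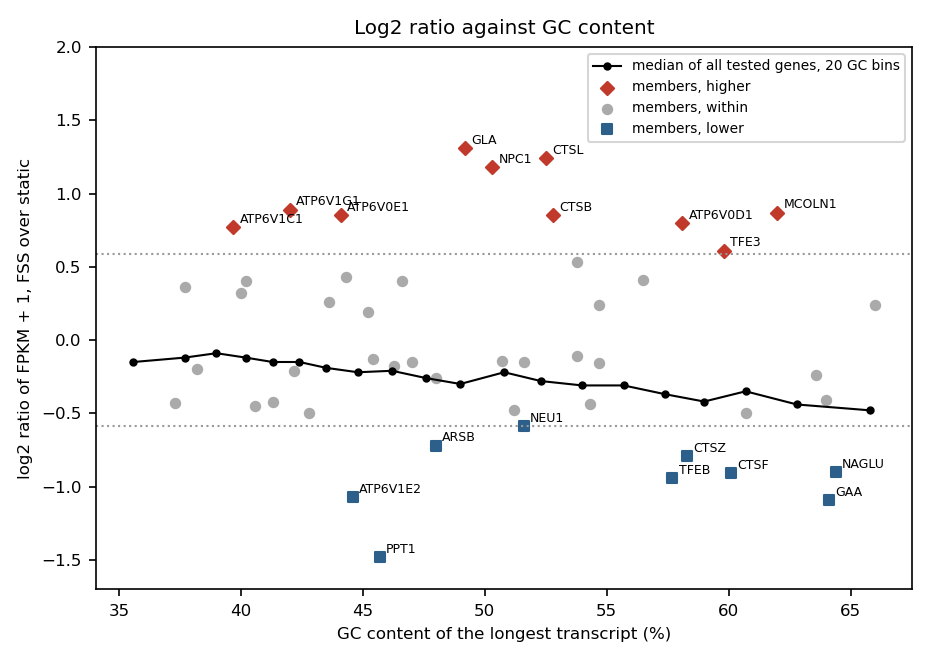
Log2 ratio of FPKM + 1, FSS over static, of the 49 tested members against GC content in percent (each gene's longest transcript); the black line joins medians of all tested genes in 20 GC bins, and dotted lines are 1.5-fold. The line falls from -0.15 in the lowest bin to -0.48 in the highest, while higher members (red) span 39.7% to 62.0% GC.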

How the data were processed

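RNA from HepG2 cells under FSS and in static culture was sequenced, with 1 library per group, each a mix of 3 replicates. The values the authors deposited are FPKM for each transcript. Tools named in the submitters' processing notes are STAR 2.5.2b, HISAT2 2.0.5, StringTie and cutadapt, with the build hg19. By the study's methods abundance came from StringTie and FPKM from Ballgown. FPKM is relative to each library's mapped fragments, and counts and depth are unknown. There were 0 further value columns.

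FPKM were summed by gene symbol. Genes with at least 0.5 FPKM in either library were kept, and log2 ratios used a pseudocount of 1. Members and lists were chosen with earlier results of these data known. By the naming rule all members are accounted for, and those past 1.5-fold, the most abundant of each role, TFEB and TFE3 are given with values, beside the up to 4 genes of each further list with the largest absolute log2 ratio. Other members and single transcripts were added after their values were seen. So were SUMF1, IDS, ATP6AP2, VMA21, FNIP2, RRAGA, MTOR, LAMTOR1, LAMTOR2, LAMTOR4, LAMTOR5, TPCN2, RAB7A, BORCS7 and BLOC1S1. Some genes of the lists are not reported here by name. Steps were tested on simulated data. Alternatives were pseudocounts of 0.1 and 5, centering on genes with 5 FPKM, rescaling to a sum of 1000000, the highest transcript, a fold of 2, a filter at 5 FPKM or none, a transcript minimum of 1 FPKM and, added after seeing the data, a correction over 20 bins of GC content (GENCODE release 29, longest transcript, 11158 of 11221 genes). Promoter sequences were from RefSeq. The scripts ran in Python 3.11.15 with matplotlib 3.10.9, pandas 2.3.3 and numpy 2.4.6.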

Additional observations from a re-analysis of the deposited data

How the results depend on the processing

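With 1 library per group no replicate could be left out. No paired analysis was possible because each group had 1 library. No called member changed direction under the 9 alternatives to the processing of gene values, and 3 higher (GLA, CTSL, NPC1) and 2 lower (GAA, PPT1) members were past the threshold under each of them. Centering gave 16 higher members against 10, 7 higher pump genes against 4 and 1 lower protease against 2. It moved the medians to 0.08 for members and for glycosidases, 0.03 for proteases and 0.52 for the pump. ARSB, CTSZ and NEU1 were then within 1.5-fold. The 2-fold rule left 3 higher and 3 lower of 49 members, against 484 higher and 1278 lower of 11221 tested genes. It left 0 higher pump genes, 1 higher and 0 lower proteases and 1 lower glycosidase. A pseudocount of 5 gave 4 lower members, 0 lower pump genes and 1 lower protease, and a filter at 5 FPKM gave 5, 0 and 1. Over all genes that pseudocount gave 1609 lower of 11221. The filter gave 2320 lower of 7898 genes, with 40 members tested. The protease median, -0.20, was -0.41 with a pseudocount of 0.1, -0.32 after rescaling, -0.09 by the highest transcript and -0.30 with a filter at 5 FPKM. With a transcript minimum of 1 FPKM, 11 of 29 members with several such forms had opposite forms, against 1623 of 5950 genes in the table. With the minimum of 5 FPKM there were 7 such members. The causes were not tested, except that a filter leaves out low genes. Read depth is unknown, so low genes such as ATP6V1E2, TFEB and CTSF carry an error that cannot be stated.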

Other observations

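Genes that tether and move lysosomes went both ways. In the list of the HOPS and CORVET tethers and the BORC complex, which ties lysosomes to motors, 6 of 19 were higher in FSS (31.6%, against 10.5% of all tested genes) and 6 lower (31.6%, against 29.5%), with a median log2 ratio of -0.18. After centering 7 were higher (36.8%, against 17.8%) and 5 lower (26.3%, against 17.9%). RAB7A, the GTPase of late endosomes, was at 108 FPKM in the static library and 175 FPKM in the FSS library. Within BORC itself, BLOC1S2 was at 15.4 and 44.7 FPKM and BORCS7 at 3.95 and 8.32 FPKM, whereas BORCS5 was at 3.04 and 0.716 FPKM, BORCS6 at 4.62 and 1.11 FPKM and BLOC1S1 at 64.9 and 34.9 FPKM. PLEKHM1, an adaptor for RAB7A and HOPS, was at 3.34 and 0.815 FPKM.

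The cystatins, which inhibit cysteine cathepsins, lay within 1.5-fold where measured. For static and FSS culture in turn, CST3 was at 91.1 and 99.9 FPKM and CSTB at 47.5 and 48.9 FPKM. SERPINB1, a protease inhibitor of another family in the same list, was at 32.9 and 20.6 FPKM.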
